A study of Mus musculus with 8 samples.

Results

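The genes described here are heat shock factor 1 (Hsf1) and 9 genes that are induced by heat or belong to the same chaperone families: Hspa1a, Hspa1b, Hspa8, Hsph1, Hsp90aa1, Dnajb1, Hspb1, Cryab and Bag3. They were picked by gene symbol and are 10 of the 55385 gene identifiers in the deposited table. Liver RNA was sequenced from 4 Usp39-HKO mice and 4 control littermates, with 1 library per mouse. Usp39-HKO mice carry Usp39 fl/fl alleles, in which loxP sites flank exon 2, together with Albumin-Cre, on a C57BL/6J background, and the control mice are labelled WT. All mice were males of 5 weeks that had fasted for 16 h. Cre under the albumin promoter acts in hepatocytes, the main cells of the liver, so the RNA of a whole liver also holds that of cells in which Usp39 was not deleted. Counts on genes summed to between 8589636 and 10418450 per liver, and replicates are numbered from 1 to 4 within each genotype only to name them.

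HSF1 is the transcription factor that turns on chaperone genes when proteins misfold. In unstressed cells it is held inactive by chaperones of the HSP70, HSP90 and HSP40 families, and under heat or other protein damage it forms trimers that bind heat shock elements, which are inverted repeats of GAA in the promoters of its targets. The products refold proteins, hold them in solution or pass them on for degradation, and in hepatocytes, which make most plasma proteins, many of these chaperones are made without heat as well. The question asked of the data is how the RNA of this factor and of these chaperones stood in livers whose hepatocytes lack Usp39, a component of the spliceosome.

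Usp39 itself, the targeted gene (ENSMUSG00000056305), was measured at an FPKM of 9.35, 10.4, 8.76 and 9.78 in control replicates 1 to 4 and of 8.37, 8.63, 8.70 and 8.07 in Usp39-HKO replicates 1 to 4. FPKM are counts scaled by exon length and by library total. The 4 Usp39-HKO livers were thus the 4 lowest. On the log2 scale Usp39 differed by −0.41 between Usp39-HKO and control (standard error 0.11, adjusted p = 0.0212). It was below 0 under every setting tried but was not called without scaling factors (−0.18, adjusted p = 0.247), by limma on log2(FPKM + 1) (−0.16), without Usp39-HKO replicate 4 (−0.35, adjusted p = 0.0615) or without control replicate 4 (−0.41, adjusted p = 0.0547). The count covers all exons of the gene, and exon 2 was not counted apart, so it is a partial check of the labels. Here and throughout, fold changes come from edgeR's quasi-likelihood test on the counts with TMM scaling, p-values were adjusted over all 14340 genes tested with the Benjamini-Hochberg method, and a gene is called higher or lower at an adjusted p under 0.05. In bulk liver, fewer cells of a type and less RNA per cell cannot be told apart. All 8 hepatocyte markers passed the filter on low values, and the most abundant of them, the serum albumin gene Alb, had an FPKM of 8119, 8355, 8179 and 7170.5 in control replicates 1 to 4 and 9767, 7281, 8982 and 7661 in Usp39-HKO replicates 1 to 4.

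The promoters of Hspb1, Hspa1a and Hspa1b are shown because Hspb1 had the largest fold change of the 10 genes and because Hspa1a and Hspa1b are neighbouring copies whose counts went different ways. RefSeq windows of GRCm38.p6, from 250 bases before to 50 bases after each start, were searched on both strands for an inverted pair of heat shock units, GAANNTTC or TTCNNGAA, and for 3 units in a row, GAANNTTCNNGAA or TTCNNGAANNTTC, which each contain 2 overlapping pairs. The 250 bases before the start are printed 5′ to 3′ on the strand of the gene, with pairs in capitals. For Hspb1 they are chr5:135887669-135887918 on the plus strand, for Hspa1a chr17:34972157-34972406 and for Hspa1b chr17:34959239-34959488, both on the minus strand.
Hspb1: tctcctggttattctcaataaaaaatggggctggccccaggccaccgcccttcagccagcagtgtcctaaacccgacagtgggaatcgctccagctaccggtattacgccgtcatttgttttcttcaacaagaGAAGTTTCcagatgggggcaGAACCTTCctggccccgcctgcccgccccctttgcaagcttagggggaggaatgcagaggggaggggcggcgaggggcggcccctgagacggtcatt
Hspa1a: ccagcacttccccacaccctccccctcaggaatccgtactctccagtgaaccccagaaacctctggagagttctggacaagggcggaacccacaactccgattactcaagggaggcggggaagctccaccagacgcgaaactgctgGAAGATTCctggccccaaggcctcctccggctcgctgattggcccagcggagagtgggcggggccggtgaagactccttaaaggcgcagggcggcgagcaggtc
Hspa1b: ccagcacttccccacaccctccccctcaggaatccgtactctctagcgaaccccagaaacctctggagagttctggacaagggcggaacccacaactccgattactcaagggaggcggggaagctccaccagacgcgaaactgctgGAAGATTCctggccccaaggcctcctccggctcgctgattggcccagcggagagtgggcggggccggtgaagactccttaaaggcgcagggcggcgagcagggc
The last printed stretch, chr5:149636279-149636308 on the minus strand, holds the 3 units in a row of Hsph1 in capitals.
Hsph1: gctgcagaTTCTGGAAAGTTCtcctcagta
Hspb1 had 2 pairs, whose first bases lie at −117 and −97 from the start. Hspa1a and Hspa1b each had 1 pair at −104, and their printed stretches were identical at 247 of 250 bases, with the substitutions C44T, T47C and T249G from Hspa1a to Hspa1b, counted from 1 at the 5′ end of the printed stretch. Hsph1 had 3 pairs in each of its 2 windows, Bag3 had 1 pair at position 42 after its start, and neither window of Dnajb1 held a pair. Windows were at hand for 6 of the 10 genes, and Hsf1, Hspa8, Hsp90aa1 and Cryab are named only. Of these 6 genes, which had 8 windows, 5 held a pair and 1 held 3 units in a row. Among all 32851 windows of the same length, from 27025 gene symbols, 15.1% held a pair and 0.603% held 3 units in a row. These shares are per window, and a share per gene was not counted. The letters are a description of the sequence, and binding of HSF1 was not measured in these livers.

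Among the 10 genes, the small heat shock protein genes Hspb1 and Cryab were higher in Usp39-HKO livers. The call of Cryab was narrow and was lost with no filter on FPKM and with most single livers left out. For the other 7 genes tested the adjusted p did not pass, which does not show that they were unchanged, and their intervals are given below. Hspa1b and Hsph1 leaned lower, with fold changes below 0 under every setting tried. Neither passed the test described above, though both were called lower without Usp39-HKO replicate 2, and Hspa1b also with no filter on FPKM. Of the 10 genes, 9 passed the filter on low values (4 or more of the 8 livers reaching an FPKM of 0.5), and Hspa1a did not. Of these 9, 2 were called higher, against 10.9% of all genes tested, and 0 were called lower, against 11.6%, so that 2 of 9 were called in either direction, against 22.5%. At an unadjusted p under 0.05, 3 were higher and 0 lower by edgeR, against 17.4% and 18% of all genes tested. DESeq2 called 2 higher and 0 lower, against 11.9% and 12.5%, and limma on log2(FPKM + 1) called 4 higher and 0 lower, against 21.1% and 4.44%. The median log2 fold change of the 9 was 0.09, beside −0.0015 over all genes tested, and 7 of the 9 were above 0, beside 49.9% of all genes tested. The 10 genes were not tested as a set, and the results below are about single genes.

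Scaling matters for all of these values. With library totals alone, the median log2 fold change over all genes tested was 0.24, and 3525 genes were called higher and 696 lower, so that 83.5% of calls were higher, against 48.4% with TMM. In FPKM, which are not scaled further, the median difference on the scale of log2(FPKM + 1) was 0.17. Without scaling factors, 4 of the 9 genes were called higher, namely Hspb1, Cryab, Hsp90aa1 and Bag3, against 24.6% of all genes tested. In deposited FPKM, 3 of the 10 genes had every Usp39-HKO liver above every control liver, namely Hsf1, Hspb1 and Bag3, against 23.9% of genes tested, and 0 had every Usp39-HKO liver below, against 4.81%. After TMM scaling of the same values, 0 of the 10 were separated in either direction, against 11.8% of genes tested higher and 13% lower.

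**Figure D1:**
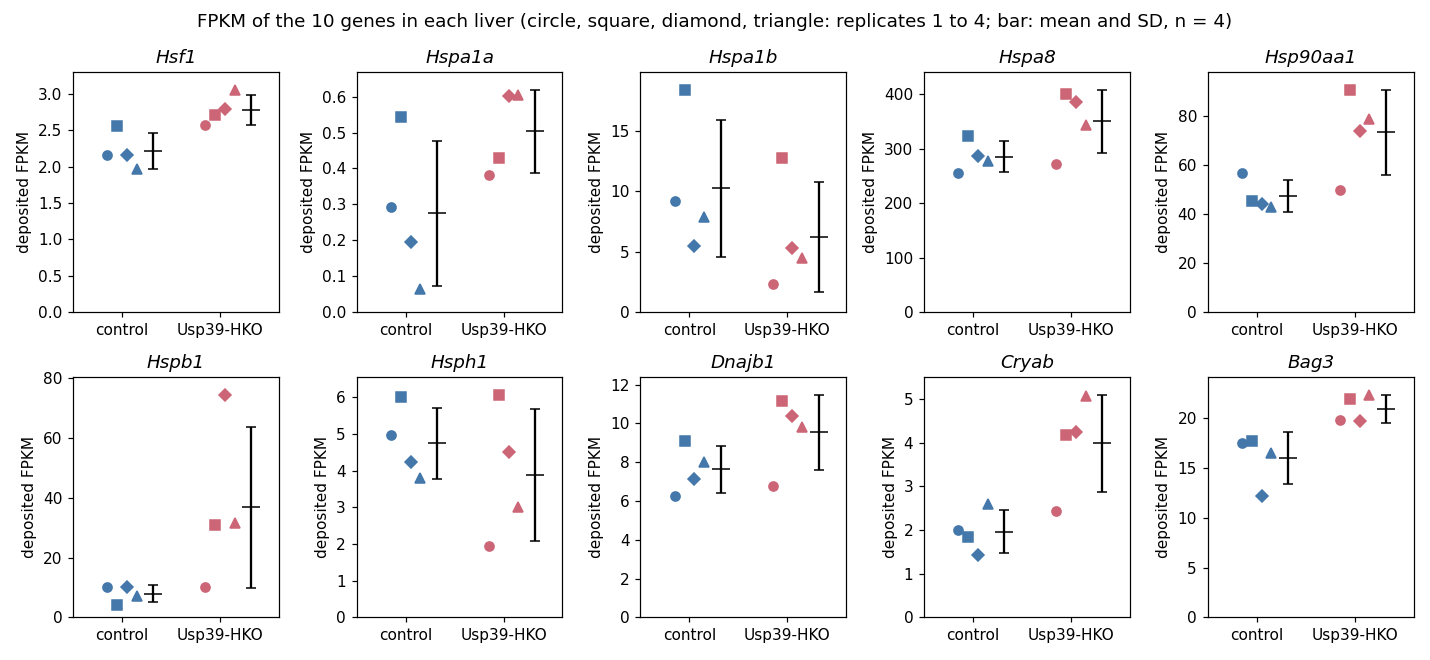
Deposited FPKM (vertical axis, from 0, with its own scale in each panel) of the 10 genes in 4 control livers (blue) and 4 Usp39-HKO livers (red). Symbols mark replicates 1 to 4, and the bars give mean and SD (n = 4). The Hspb1 values of Usp39-HKO replicates 2, 3 and 4 lie at 30.9, 74.3 and 31.6, and that of replicate 1 lies at 10.3, level with the highest control.

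Hsf1 (ENSMUSG00000022556), the factor itself, lies on chromosome 15, plus strand, 76477422 to 76501913 (GRCm38, as for all positions given). Its FPKM was 2.16, 2.56, 2.16 and 1.97 in control replicates 1 to 4, and 2.58, 2.71, 2.79 and 3.06 in Usp39-HKO replicates 1 to 4. In these units the 4 Usp39-HKO livers were the 4 highest, although control replicate 2 was close to Usp39-HKO replicate 1. After TMM scaling the ranges overlapped, with control replicate 2 the highest of the 8. The log2 fold change was 0.09 (95% confidence interval −0.16 to 0.35, adjusted p = 0.611), and without scaling factors it was 0.33, which was not called either. The interval leaves room for a fold between 0.894 and 1.27. Between 132 and 206 reads per liver were counted on Hsf1. The annotation lists 16 transcripts of Hsf1, of which 7 are coding, 3 are marked for nonsense-mediated decay and 5 retain an intron, and a count over all 7099 exon bases does not tell them apart.

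By the pattern over the 8 livers, the genes most like Hsf1 were Lsm1, Usmg5, Akap8, Hnrnpm and Ubl5. Likeness was the root mean square difference between centred log2 values after TMM scaling over 8 livers. It was taken among 6665 of the 6672 genes with a mean FPKM of at least 5. The difference was 0.0474 for Lsm1, 0.0477 for Usmg5, 0.0553 for Akap8, 0.058 for Hnrnpm and 0.0582 for Ubl5, beside a median of 0.249 over the genes compared. None of these 5 was called in edgeR, with adjusted p between 0.306 for Ubl5 and 0.683 for Lsm1. Since Hsf1 itself varied little (root mean square 0.112 about its mean), genes that vary little are favoured by this measure.

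Hspa8 (ENSMUSG00000015656, chromosome 9, plus strand, 40800984 to 40810087) encodes the constitutive HSP70 of the cytosol, which folds new proteins and also takes part in chaperone-mediated autophagy. It was the most abundant of the 10 genes, with an FPKM of 255, 324, 286 and 278 in control replicates 1 to 4 and 272, 401, 386 and 345 in Usp39-HKO replicates 1 to 4. Hspa8 made up between 66.3% and 76.6% of the summed FPKM of the 10 genes in each liver. Usp39-HKO replicates 2, 3 and 4 were above every control in FPKM, whereas Usp39-HKO replicate 1 lay within the control range. Its log2 fold change was 0.06 (95% confidence interval −0.26 to 0.38, adjusted p = 0.809), and its sign turned without Usp39-HKO replicate 2 (−0.0114) or Usp39-HKO replicate 3 (−0.0004). Of the 150-base stretches of its transcripts, 23.0% also occur in another annotated gene, mostly Gm26825, so part of its reads could have been assigned elsewhere.

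Hspa1b (ENSMUSG00000090877, chromosome 17, minus strand, 34956436 to 34959238) encodes the HSP70 that is strongly induced by heat. Its FPKM was 9.21, 18.4, 5.44 and 7.91 in control replicates 1 to 4 and 2.35, 12.8, 5.35 and 4.48 in Usp39-HKO replicates 1 to 4. Usp39-HKO replicates 1, 3 and 4 were below every control, though replicate 3 by little, and Usp39-HKO replicate 2 was above 3 of the 4 controls. Control replicate 2 was the highest liver. The log2 fold change was −0.95 (95% confidence interval −1.96 to 0.06, adjusted p = 0.165). Single livers moved this value, from −1.58 (adjusted p = 0.0187 by edgeR) without Usp39-HKO replicate 2, where Hspa1b was called lower, to −0.51 (adjusted p = 0.445 by edgeR) without control replicate 2. With no filter on FPKM Hspa1b was also called lower (−0.99, adjusted p = 0.0321 by edgeR).

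Hspa1a (ENSMUSG00000091971, chromosome 17, minus strand, 34969190 to 34972156) is the neighbouring copy and encodes nearly the same protein. Only 2 to 17 reads per liver were counted on it, 31 over the controls and 58 over the Usp39-HKO livers, against 1111 and 692 on Hspa1b. Its FPKM was 0.294, 0.544, 0.196 and 0.0647 in control replicates 1 to 4 and 0.381, 0.430, 0.6005 and 0.604 in Usp39-HKO replicates 1 to 4. Control replicate 2 lay among the Usp39-HKO livers and the genotypes overlapped. The gene reached an FPKM of 0.5 in 3 livers and was left out of the test. With no filter, its log2 fold change was 0.59 (95% confidence interval −0.32 to 1.51, adjusted p = 0.471 by edgeR), of opposite sign to that of Hspa1b.

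The split of reads between these copies is uncertain. Their coding sequences, 1923 bases in Hspa1a and 1926 in Hspa1b, were identical at 1915 aligned bases with 8 mismatches (99.58%), and 46.0% of the 150-base stretches of Hspa1a and 40.5% of those of Hspa1b occur in another gene. Besides, 564 exon bases of Hspa1a (19.0%) overlap Gm20481 on the opposite strand, which had 0 counts. With the counts of Hspa1a and Hspa1b added, the log2 fold change was −0.87 (95% confidence interval −1.84 to 0.09, adjusted p = 0.181 by edgeR), close to that of Hspa1b alone.

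Hsph1 (ENSMUSG00000029657, chromosome 5, minus strand, 149614287 to 149636376) encodes HSP110, which exchanges the nucleotide of HSP70 and helps it dissolve aggregates. Its FPKM was 4.96, 5.998, 4.23 and 3.79 in control replicates 1 to 4 and 1.94, 6.06, 4.51 and 3.01 in Usp39-HKO replicates 1 to 4. Usp39-HKO replicates 1 and 4 were below every control, while Usp39-HKO replicate 2 was the highest liver in FPKM. For Hsph1 the log2 fold change was −0.53 (95% confidence interval −1.15 to 0.10, adjusted p = 0.212). With single livers left out it lay between −0.83 (adjusted p = 0.0417 by edgeR) without Usp39-HKO replicate 2, where Hsph1 was called lower, and −0.30 (adjusted p = 0.411 by edgeR) without Usp39-HKO replicate 1. No 150-base stretch of Hsph1 occurs in another gene, so its reads were not shared in that way.

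Hsp90aa1 (ENSMUSG00000021270, chromosome 12, minus strand, 110690605 to 110702728) encodes the inducible HSP90 of the cytosol, which matures kinases and steroid receptors and also holds HSF1 inactive. Its FPKM was 56.9, 45.2, 44.3 and 42.7 in control replicates 1 to 4 and 49.7, 90.8, 73.9 and 79.0 in Usp39-HKO replicates 1 to 4. Usp39-HKO replicates 2, 3 and 4 were above every control, also after TMM scaling, and Usp39-HKO replicate 1 lay below control replicate 1. By edgeR its log2 fold change was 0.39 (95% confidence interval 0.03 to 0.74, adjusted p = 0.108), so the interval excluded 0 but the adjusted p did not pass. It was called higher without scaling factors (0.64, adjusted p = 0.0169), in limma on log2(FPKM + 1) (0.60, adjusted p = 0.0374), in limma on log2(FPKM + 0.1) (0.61, adjusted p = 0.0383) and without Usp39-HKO replicate 1 (0.54, adjusted p = 0.0158). A pseudogene, Gm12346, shares most of the 28.45% of stretches found elsewhere and had 19 to 45 counts per liver, against 1496 to 3639 on Hsp90aa1.

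Dnajb1 (ENSMUSG00000005483, chromosome 8, plus strand, 83608193 to 83612653) encodes the inducible HSP40, which hands substrates to HSP70 and stirs its ATPase. Its FPKM was 6.25, 9.07, 7.16 and 8.03 in control replicates 1 to 4 and 6.78, 11.2, 10.4 and 9.81 in Usp39-HKO replicates 1 to 4. As for Hspa8 and Hsp90aa1, Usp39-HKO replicates 2, 3 and 4 were above every control in FPKM and replicate 1 was within the control range. After TMM scaling 1 Usp39-HKO liver was above every control and 1 was below. Its log2 fold change was 0.08 (95% confidence interval −0.26 to 0.43, adjusted p = 0.746), and without Usp39-HKO replicate 2 it was −0.0039.

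Hspb1 (ENSMUSG00000004951, chromosome 5, plus strand, 135887919 to 135889563) encodes a small heat shock protein that binds unfolding proteins without ATP and is also known to bind actin. Its FPKM was 10.04, 4.21, 10.3 and 7.26 in control replicates 1 to 4 and 10.3, 30.9, 74.3 and 31.6 in Usp39-HKO replicates 1 to 4. Usp39-HKO replicates 2, 3 and 4 were far above every control, replicate 3 the highest by far, whereas Usp39-HKO replicate 1 equalled the highest control to 3 digits. The mean was 7.95 ± 2.84 (SD, n = 4) in controls and 36.8 ± 26.9 (SD, n = 4) in Usp39-HKO livers. Hspb1 was 3.93-fold higher, a log2 fold change of 1.98 (standard error 0.48, 95% confidence interval 0.91 to 3.04, adjusted p = 0.0143). It was called higher under all 15 alternatives run for it, and with each liver left out the log2 fold change lay between 1.34 and 2.30. The lowest of these was without Usp39-HKO replicate 3, where the adjusted p was 0.0297 by edgeR. The highest adjusted p, 0.0475 by edgeR, was without control replicate 4. A pseudogene, Hsp25-ps1, shares 39.1% of its stretches and had 0 to 4 counts per liver, against 43 to 731 on Hspb1.

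Cryab (ENSMUSG00000032060, chromosome 9, plus strand, 50751325 to 50756636) encodes alpha B-crystallin, a related small heat shock protein that is known from lens and muscle. Its FPKM was 1.99, 1.84, 1.42 and 2.60 in control replicates 1 to 4 and 2.43, 4.18, 4.25 and 5.06 in Usp39-HKO replicates 1 to 4. Usp39-HKO replicates 2, 3 and 4 were again above every control, and replicate 1 was below control replicate 4. Cryab was 1.70-fold higher, or 0.77 on the log2 scale (standard error 0.25, 95% confidence interval 0.23 to 1.31, adjusted p = 0.0445). Between 18 and 71 reads per liver stood behind these values. The call was narrow and was lost with no filter on FPKM (0.74, adjusted p = 0.0616). It was lost without control replicate 1 (0.78, adjusted p = 0.0894), control replicate 2 (0.74, adjusted p = 0.0821) or control replicate 3 (0.65, adjusted p = 0.124). It was also lost without Usp39-HKO replicate 2 (0.74, adjusted p = 0.0828), replicate 3 (0.72, adjusted p = 0.0976) or replicate 4 (0.68, adjusted p = 0.115), all by edgeR. Of its exon bases, 252 (17.0%) overlap Hspb2 on the opposite strand, and Hspb2 had only 1 to 4 counts per liver.

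Bag3 (ENSMUSG00000030847, chromosome 7, plus strand, 128523616 to 128546981) encodes the co-chaperone that links HSP70 and small heat shock proteins to selective autophagy. Its FPKM was 17.6, 17.8, 12.2 and 16.5 in control replicates 1 to 4 and 19.8, 21.9, 19.8 and 22.4 in Usp39-HKO replicates 1 to 4. In FPKM every Usp39-HKO liver was above every control, with control replicate 3 the lowest, and after TMM scaling 2 of the 4 Usp39-HKO livers were. With TMM, its log2 fold change was 0.15 (95% confidence interval −0.11 to 0.42, adjusted p = 0.406). It was called higher without scaling factors (0.39, adjusted p = 0.0418) and in limma on log2(FPKM + 1) (0.38, adjusted p = 0.0486) but not in limma on log2(FPKM + 0.1) (0.40, adjusted p = 0.0501), where no scaling factors were used either.

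**Figure D2:**
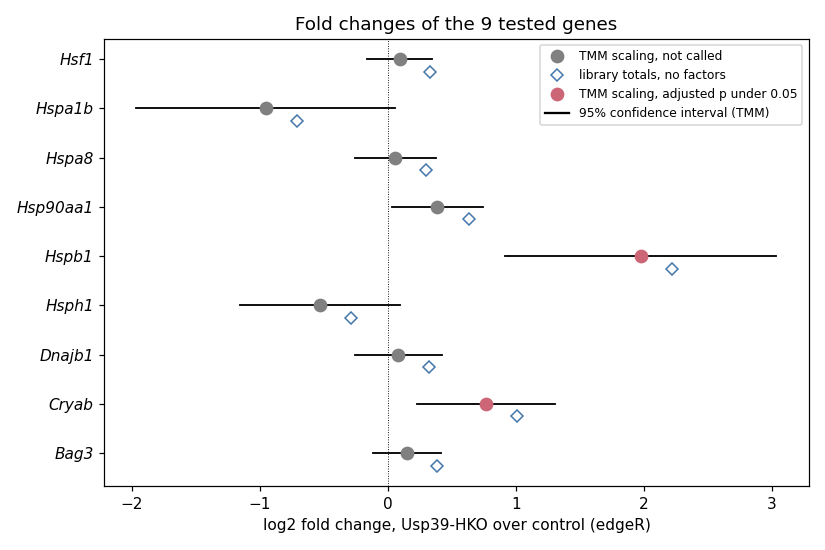
Fold changes from edgeR on the log2 scale (horizontal axis, above 0 where Usp39-HKO is higher) for the 9 genes tested, with TMM scaling (circles, with 95% confidence intervals as lines) and with library totals alone (open diamonds). Red circles mark the calls, Hspb1 at 1.98 and Cryab at 0.77, and every diamond lies to the right of its circle.

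Several of the 10 genes were lowest or highest in the same liver of a genotype. After TMM scaling, Usp39-HKO replicate 1 was the lowest of its genotype in 7 of the 9 genes tested, namely Hspa1b, Hspa8, Hsp90aa1, Hspb1, Hsph1, Dnajb1 and Cryab, whereas it was the lowest in 29.2% of all genes tested. In this genotype Hsf1 was lowest in replicate 2 and Bag3 in replicate 3. Usp39-HKO replicate 2 was the highest of its genotype in 6 of the 9, beside 24.0% of all genes tested. Control replicate 2 was the highest of the controls in 6 of the 9, beside 32.3% of all genes tested. These counts are a description, and the order of the livers was not tested. On the log2 scale relative to the control mean, Usp39-HKO replicate 1 was at −2.26 for Hspa1b, at −1.43 for Hsph1 and at 0.23 for Hspb1. Usp39-HKO replicate 3 had the highest Hspb1 (3.01) together with low Hspa1b (−1.15), so these genes were not all high or all low in the same liver.

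**Figure D3:**
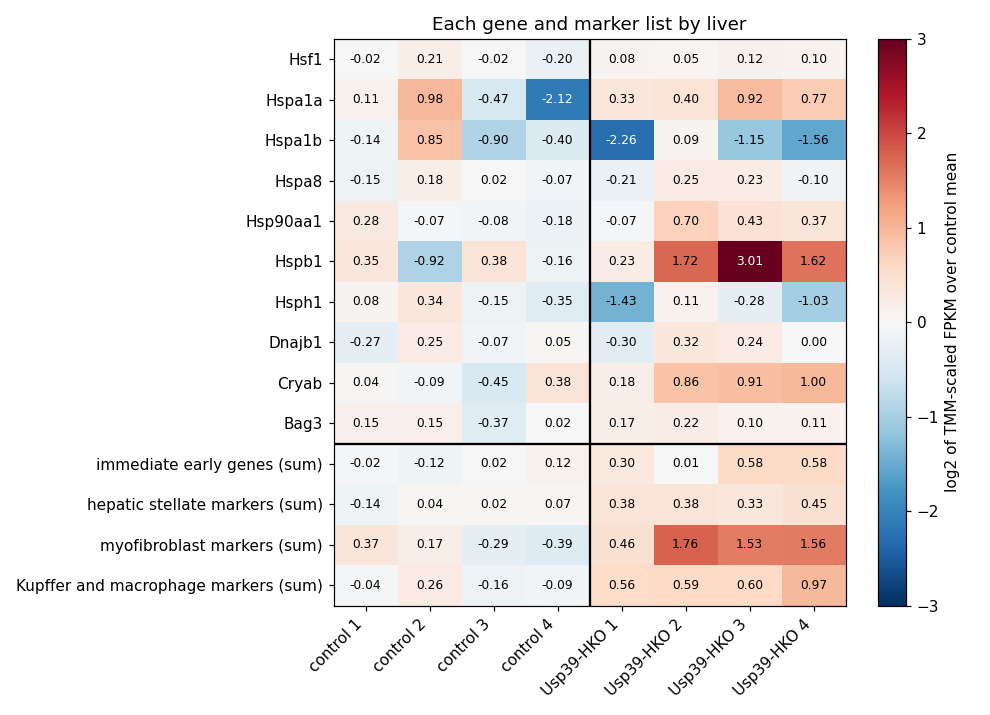
Log2 of TMM-scaled FPKM relative to the control mean (colour and printed values) for the 10 genes and for the summed FPKM of 4 marker lists, with a column per liver and a line between the genotypes. Hspb1 reaches 3.01 in Usp39-HKO replicate 3, and Hspa1b falls to −2.26 in Usp39-HKO replicate 1.

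A ratio of related genes within a liver needs no scaling between livers. For 5 such ratios the genotypes were compared with a two-sided exact permutation test over the 70 assignments of the 8 livers, adjusted over the 5 ratios. The ratio of inducible Hsp90aa1 to constitutive Hsp90ab1 was 0.164, 0.139, 0.143 and 0.147 in control replicates 1 to 4 and 0.209, 0.277, 0.216 and 0.255 in Usp39-HKO replicates 1 to 4. All 4 Usp39-HKO livers were above all controls, including replicate 1, in which Hsp90aa1 alone was not. The difference was 0.69 on the log2 scale (exact permutation p = 0.0286, the smallest that 4 against 4 livers allow, adjusted p = 0.0714). In this ratio the numerator leaned higher and, with TMM, the denominator lower, since the log2 fold change of Hsp90ab1 was −0.31 (95% confidence interval −0.60 to −0.01, adjusted p = 0.129 by edgeR). In deposited FPKM, which are not scaled further, Hsp90ab1 was closer between genotypes, with means of 319 in controls and 304 in Usp39-HKO livers.

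The ratio of Hspa8 to Hspa5, the HSP70 of the endoplasmic reticulum, was 2.34, 2.28, 2.202 and 2.14 in control replicates 1 to 4 and 2.91, 4.24, 3.62 and 2.996 in Usp39-HKO replicates 1 to 4. Again the genotypes did not overlap. The difference was 0.60 on the log2 scale (exact permutation p = 0.0286, adjusted p = 0.0714). Hspa5 was itself called lower, with a log2 fold change of −0.55 (adjusted p = 0.00666 by edgeR), a call that is lost without scaling factors (−0.31, adjusted p = 0.0674).

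The summed FPKM of Hspa1a and Hspa1b relative to that of Hspa8 was 0.0372, 0.0586, 0.0197 and 0.0287 in control replicates 1 to 4 and 0.0100, 0.0330, 0.0154 and 0.0147 in Usp39-HKO replicates 1 to 4. Usp39-HKO replicates 1, 3 and 4 were below every control and replicate 2 lay among them, so the genotypes overlapped. The difference was −1.01 on the log2 scale (exact permutation p = 0.0857, adjusted p = 0.143). Hsph1 relative to Hspa4, its constitutive relative, was 0.150, 0.209, 0.145 and 0.136 in control replicates 1 to 4 and 0.0717, 0.164, 0.129 and 0.0885 in Usp39-HKO replicates 1 to 4. The difference was −0.55 (exact permutation p = 0.171, adjusted p = 0.214), and without Usp39-HKO replicate 2 it was −0.75 (exact permutation p = 0.0286). Dnajb1 relative to Dnaja1, a constitutive HSP40, was 0.254, 0.3201, 0.349 and 0.441 in control replicates 1 to 4 and 0.324, 0.420, 0.359 and 0.398 in Usp39-HKO replicates 1 to 4. The difference was 0.16 (exact permutation p = 0.457, adjusted p = 0.457). Of the 5 ratios, 2 had an unadjusted exact p under 0.05 and 0 passed after adjustment, which with 4 livers against 4 would have needed at least 3 of the 5 ratios to separate fully.

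**Figure D4:**
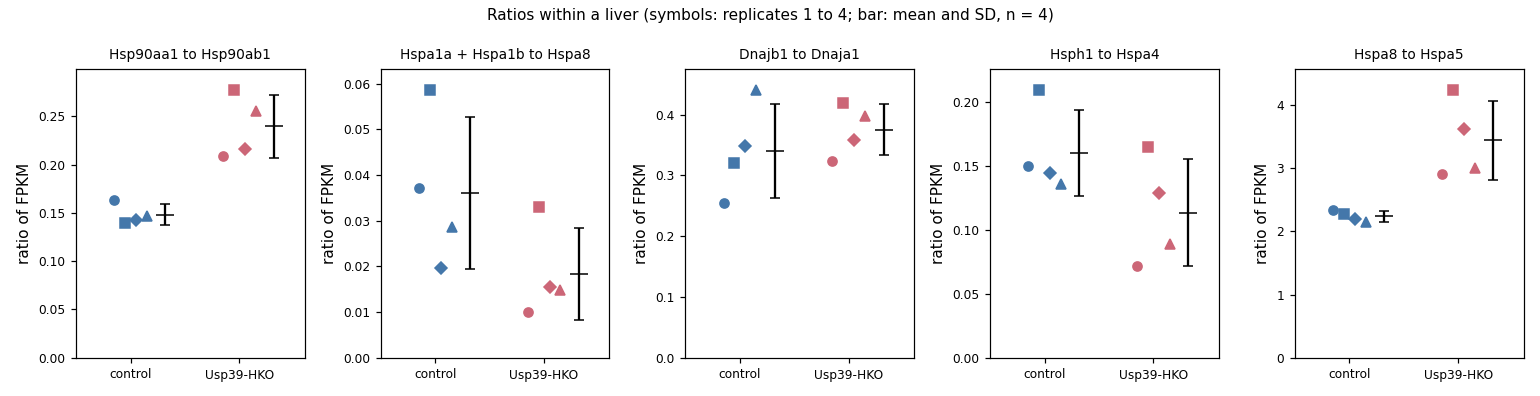
Ratios of FPKM within each liver (vertical axis, from 0, with its own scale in each panel) for 5 pairs of related chaperone genes, with 4 control livers in blue, 4 Usp39-HKO livers in red, symbols for replicates 1 to 4, and bars for mean and SD (n = 4). The genotypes separate for Hsp90aa1 to Hsp90ab1 and for Hspa8 to Hspa5, and overlap in the other 3 panels.

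The rest of the pathway was followed in 11 lists with 80 genes, of which 71 were tested. Of these, 8 were called higher and 8 lower (11.3% each, against 10.9% and 11.6% of all genes tested), with a median log2 fold change of 0.01. DESeq2 called 8 higher and 12 lower, against 11.9% and 12.5% of all genes tested. At an unadjusted p under 0.05 by edgeR, 8 were higher and 17 lower, against 17.4% and 18%. Without scaling factors 17 were called higher and 1 lower (23.9% and 1.41%, against 24.6% and 4.85% of all genes tested). The list that moved most was that of other heat-inducible genes, in which 4 of 6 were called higher and 0 lower. Its median log2 fold change was 0.95, and both DESeq2 and an unadjusted p under 0.05 gave 4 higher and 1 lower. Atf3, a stress-induced transcription factor, had a log2 fold change of 2.56 (adjusted p = 0.00520), and Ier5, which is known to regulate HSF1, one of 1.55 (adjusted p = 0.000957). Hmox1, which degrades haem, had 0.96 (adjusted p = 0.00460), and Serpinh1, the collagen chaperone of the endoplasmic reticulum, 0.94 (adjusted p = 0.0188, all by edgeR). The call of Serpinh1 was lost without control replicate 1, 3 or 4 or Usp39-HKO replicate 4 (adjusted p of 0.0545, 0.0607, 0.0619 and 0.0509), and without Usp39-HKO replicate 2 a single gene of this list was called lower. Atf3, like Hspb1, was lowest in replicate 1 and highest in replicate 3 of the Usp39-HKO livers, with an FPKM of 2.78, 2.67, 1.24 and 1.34 in control replicates 1 to 4 and 3.87, 9.06, 25.9 and 17.6 in Usp39-HKO replicates 1 to 4.

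The list of organelle chaperones leaned the other way. Of 9 chaperones of the endoplasmic reticulum and the mitochondrion tested, 0 were called higher and 5 lower by edgeR, with a median log2 fold change of −0.38, and only 1 was lower without scaling factors, where the median was −0.15. At an unadjusted p under 0.05, 0 were higher and 6 lower, and DESeq2 called 0 higher and 5 lower. Hyou1, the large HSP70 relative of the endoplasmic reticulum, was the call kept without scaling factors, with a log2 fold change of −0.86 (adjusted p = 0.000627) and an FPKM of 10.7, 14.2, 12.1 and 11.9 in control replicates 1 to 4 and 6.99, 8.36, 7.67 and 8.78 in Usp39-HKO replicates 1 to 4. Hsp90b1 had −0.54 (adjusted p = 0.00624) and Dnajb11 −0.38 (adjusted p = 0.0272, by edgeR). The calls were all of the endoplasmic reticulum. Mitochondrial Hspa9, the most abundant, had −0.07 and was not called. Trap1 (−0.28), Hspa13 (−0.12) and Dnajb9 (0.06) were not called either. With control replicate 3 or control replicate 4 left out, 3 of the list were called lower. The fifth gene of this list called lower, Dnajc3, is named after its values were seen.

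Among HSP90 and its co-chaperones, 2 of 13 were called higher, Ppid (0.43, adjusted p = 0.0252) and Ptges3 (0.41, adjusted p = 0.0350), and 0 lower by edgeR, while 4 and 0 were without scaling factors. At an unadjusted p under 0.05, 2 were higher and 3 lower, and DESeq2 called 2 higher and 1 lower. The count higher was 1 without control replicate 2 and 0 without control replicate 3, control replicate 4 or Usp39-HKO replicates 2, 3 or 4, and 1 was lower without Usp39-HKO replicate 2 or 3. Among 9 regulators of HSF1, Plk1, a mitotic kinase, was higher (2.43, adjusted p = 0.00146) and Hdac6, a deacetylase that senses aggregates, was lower (−0.44, adjusted p = 0.0397). The call of Hdac6 was lost without scaling factors (−0.20, adjusted p = 0.311) and without control replicates 1, 3 or 4 or Usp39-HKO replicates 1, 3 or 4 (adjusted p between 0.0503 and 0.125). In this list 2 genes were higher without scaling factors, and DESeq2 called 2 lower. Of 5 tested among the other HSP70 and HSP110 genes, Hspa2 was higher (0.92, adjusted p = 0.0211), which was lost without control replicates 1, 3 or 4 or Usp39-HKO replicate 4 (adjusted p between 0.0615 and 0.0649). Of 6 nucleotide exchange factors, Bag4 (−0.42, adjusted p = 0.0288) and Bag1 (−0.32, adjusted p = 0.0213) were lower, and without scaling factors 0 were. That count was 1 without control replicate 1 or Usp39-HKO replicate 2 and 0 without control replicates 3 or 4 or Usp39-HKO replicates 3 or 4.

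In the remaining lists, edgeR called 0 genes in either direction. These were the HSF family (3 of 5 tested), other HSP40 (8 tested), other small heat shock proteins (2 of 7 tested), the mitochondrial chaperonin (2 tested) and the TRiC chaperonin (8 tested). At an unadjusted p under 0.05, 1 of the other small heat shock proteins and 1 of TRiC were lower and none was higher, and DESeq2 called 1 of TRiC lower. Without scaling factors, 2 of other HSP40, 1 of the mitochondrial chaperonin and 3 of TRiC were called higher, while without Usp39-HKO replicate 3 a gene of other HSP40, and without Usp39-HKO replicate 1 a small heat shock protein, was called lower. The median log2 fold changes were −0.07 for the HSF family, 0.06 for other HSP40, −0.18 for other small heat shock proteins, 0.07 for the mitochondrial chaperonin and −0.03 for TRiC, and all of them were above 0 without scaling factors. The most abundant of the other small heat shock proteins, Hspb8, had a log2 fold change of 0.01 (95% confidence interval −0.31 to 0.34), and Hspb3 and Cryaa had 0 counts in every liver. Promoter windows were at hand for 68 of the 80 genes, of which 19 held a pair of heat shock units and 4 held 3 units in a row. These genes had 86 windows, and the shares over all windows, 15.1% and 0.603%, are per window and not per gene. Of the 4 genes, 2 are those of the mitochondrial chaperonin, whose windows overlap and hold the same units.

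**Figure D5:**
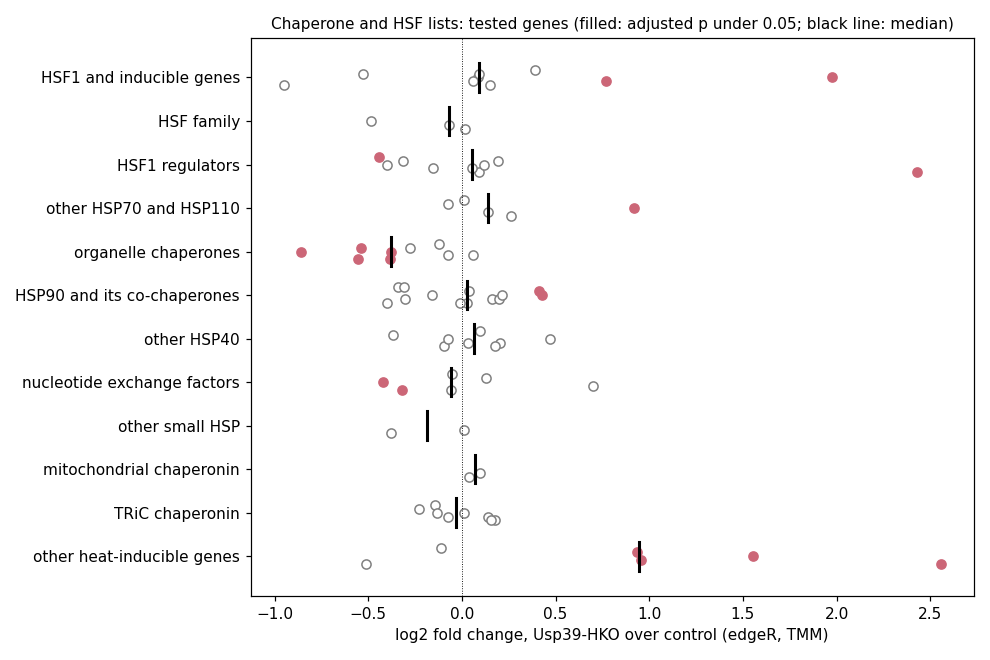
Fold changes on the log2 scale (edgeR with TMM scaling, horizontal axis, above 0 where Usp39-HKO is higher) for each tested gene of the 10 genes and of the 11 pathway lists. Filled points have an adjusted p under 0.05, and the black line is the median of a list, which is 0.09 for the 10 genes, 0.95 for other heat-inducible genes and −0.38 for organelle chaperones, of which only 1 is called lower without scaling factors.

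Markers of some cells other than hepatocytes were higher, as Hspb1 and Cryab were, while erythroid markers were lower. Of all genes tested, 10.9% were called higher with TMM and 24.6% without scaling factors. Of 10 hepatic stellate markers, 6 were called higher (8 without scaling factors), and 8 had a log2 fold change above 0. The summed FPKM of the 10 was 155, 178, 174 and 184 in control replicates 1 to 4 and 247, 264, 252 and 304 in Usp39-HKO replicates 1 to 4. Ecm1, the most abundant, was not called (−0.16, adjusted p = 0.534 by edgeR). Of 8 smooth muscle and activated myofibroblast markers, 4 of the 5 tested were higher, with sums of 19.6, 17.2, 12.4 and 11.9 in controls and 23.1, 61.3, 51.1 and 58.2 in Usp39-HKO livers, and Col3a1 the most abundant. In the myofibroblast sum, as for Hspb1 and Cryab, Usp39-HKO replicate 1 was nearest the controls, also after TMM scaling. In the stellate sum replicate 1 was nearest in FPKM only, and by little (247 against 252 in replicate 3). After TMM scaling the stellate sums of Usp39-HKO replicates 1 to 4 were 0.38, 0.38, 0.33 and 0.45. These are log2 values relative to the control mean, and replicate 3 was nearest. The 4 calls of the myofibroblast list were Col1a1, Col3a1, Timp1 and Lox, and Timp1 passed the filter only through the Usp39-HKO livers. Acta2 was not called (0.92, adjusted p = 0.167 by edgeR). Tagln, Myh11 and Cnn1 did not pass the filter. Their mean FPKM was 0.400, 0.425 and 0.0499 in controls and 0.336, 0.494 and 0.0383 in Usp39-HKO livers. Of the cholangiocyte markers, Epcam (2.11, adjusted p = 0.00582), Krt19 (1.76, adjusted p = 0.0107) and Sox9 (1.10, adjusted p = 0.0372) were called higher by edgeR. The call of Sox9 was lost by limma on log2(FPKM + 1) (adjusted p = 0.0607) and with any liver but Usp39-HKO replicate 1 left out (adjusted p between 0.0578 and 0.114). Of 8 Kupffer cell and macrophage markers, 6 were higher (8 without scaling factors), with sums of 350.3, 436, 324 and 349 in controls and 589.7, 646, 640.4 and 922 in Usp39-HKO livers, and Cd5l the most abundant. Of the stellate, myofibroblast and Kupffer lists, none had a gene at 0 in all livers, and in none was a gene called lower. With a single liver left out, the calls numbered between 4 and 7 for stellate markers, 4 and 5 for myofibroblast markers and 4 and 7 for Kupffer markers. The part of these cells in the higher Hspb1 and Cryab was not tested.

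Of 6 skeletal muscle markers, 0 passed the filter, and Ckm and Myh4 had 0 counts in every liver. The sums were 0.479, 1.23, 0.1096 and 0.844 in controls and 0.291, 1.17, 0.889 and 0.672 in Usp39-HKO livers, and overlapped. Mylpf was the most abundant, with a mean FPKM of 0.619 in controls and 0.432 in Usp39-HKO livers. With no filter, 4 were tested by edgeR, 1 was called higher and 0 lower. Acta1, named after its values were seen, was at 0 in the controls and in Usp39-HKO replicate 1 and had an FPKM of 0.319, 0.478 and 0.275 in Usp39-HKO replicates 2 to 4. These values are near the floor, with at most 7 reads in a liver and 16 over the 4 Usp39-HKO livers. The part of muscle cells, in which Hspb1 and Cryab are abundant, was not tested. Immediate early genes, which respond within minutes to handling and to stress, were higher in 4 of 7 tested of 8, with sums of 124, 117, 128 and 141 in controls and 172, 151, 219 and 245 in Usp39-HKO livers, and Jun the most abundant. This count was 6 without scaling factors, 2 without control replicates 1, 2 or 4, 1 without Usp39-HKO replicate 3, and 0 without control replicate 3 or Usp39-HKO replicate 4. Cell cycle markers were higher in 5 of 6 (6 without scaling factors), with sums of 11.0, 15.7, 12.6 and 13.9 in controls and 37.1, 29.9, 27.9 and 38.4 in Usp39-HKO livers, and Pcna the most abundant. The part of handling or of growth in the chaperone values was not tested.

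Other marker lists were lower or mixed. Hepatocyte markers were called lower in 3 of 8 (Serpina1c, Cyp2e1 and Cps1), with a median log2 fold change of −0.41, in 2 without scaling factors, in 1 by limma on log2(FPKM + 1), in 4 without Usp39-HKO replicate 1, in 1 without control replicate 4 or Usp39-HKO replicates 2 or 3, in 2 without Usp39-HKO replicate 4, and in 0 without control replicates 1 or 3. Erythroid markers were called lower in 5 of 5 tested of 6, with sums of 369, 772, 538 and 498 in controls and 155, 289.7, 365 and 174 in Usp39-HKO livers, and Hbb-bs the most abundant. Of 8 endothelial markers, of which Clec4g was the most abundant, 0 were higher and Stab2 and Lyve1 were lower, while 3 were higher and 1 lower without scaling factors. DESeq2 called 1 endothelial marker higher and 2 lower, and by edgeR 1 and 3 had an unadjusted p under 0.05. The count of 2 was 3 without Usp39-HKO replicate 1, 0 without control replicate 3, and 1 with any other liver left out or with RLE factors. Of 5 lymphocyte markers tested of 6, Ptprc, which all leukocytes carry, was higher (0.53, adjusted p = 0.0277), a call lost without control replicates 2, 3 or 4 or Usp39-HKO replicates 2 or 4. Pancreatic acinar markers, of which none of 7 passed the filter, summed to 527 in control replicate 4 and to between 0.405 and 2.45 in the other livers, with Ctrb1 the most abundant. Without that liver the log2 fold changes of Hspb1 (1.93) and Cryab (0.92) were still called, with adjusted p of 0.0475 and 0.0457 by edgeR.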

How the data were processed

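RNA was measured in 8 livers, 4 control and 4 Usp39-HKO, with 1 library per mouse made with the NEB Next Ultra RNA kit and sequenced on an Illumina NovaSeq. The deposited table holds counts per gene, made by the authors. Per the submitters' processing notes, reads were trimmed with Trim Galore 0.6.1, checked with FastQC 0.11.9, aligned to mm10 (GRCm38) with HISAT2, processed with Picard and counted with featureCounts. The deposited FPKM were made by the authors from these counts, the deposited exon length of each gene and the total count of the library. The annotation release and the strand setting are not given in the sources used here. The table also holds the submitters' own DESeq2 comparison (mean count, log2 fold change with its error, statistic, p, adjusted p and a label of change), and none of these columns was used. Of 55699 entries, 314 repeated an identifier with the same counts and were dropped, which leaves 55385 gene identifiers, and 0 per-sample columns could not be matched to a mouse.

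The counts were fitted for the 14340 genes that reached an FPKM of 0.5 in 4 or more of the 8 livers by the quasi-likelihood test of edgeR 4.0.16 in R 4.3.3, with TMM factors and genotype as the only term. Adjustment was by Benjamini-Hochberg over all genes tested, and genes were called at an adjusted p under 0.05. The F statistic of each gene and its fold change gave the standard error, and this the 95% confidence interval. The common biological coefficient of variation was 0.179. TMM factors were 0.911, 0.922, 0.911 and 0.940 in control replicates 1 to 4 and 1.01, 1.09, 1.06 and 1.19 in Usp39-HKO replicates 1 to 4. Ratios were compared by exact permutation of the 8 livers. The procedure was tested on simulated data.

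Alternatives were RLE factors, no factors, DESeq2 1.42.0, limma 3.58.1 on log2(FPKM + 1) and on log2(FPKM + 0.1), no filter except 1 count in a liver, a mean FPKM of at least 5, and each liver left out. For calls, a log2 fold change beyond 0.5 in either direction with p under 0.05 before adjustment was also tried, and for ratios FPKM + 1 and counts. Gene positions came from GENCODE vM21 and promoter windows from RefSeq on GRCm38.p6, read with Biopython 1.88. Tables and figures were made with Python 3.11.15, pandas 2.3.3, NumPy 2.4.6 and matplotlib 3.10.9.

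The 10 genes, 11 pathway lists and the marker lists of hepatocytes, stellate cells, myofibroblasts, cholangiocytes, endothelium, Kupffer cells, lymphocytes, erythroid cells, skeletal muscle, pancreatic acini, immediate early genes and cell cycle were chosen with earlier results of these data known. All 10 genes are named. From each other list, the most abundant gene by mean FPKM and up to 4 called genes with the largest absolute log2 fold change may be named, besides Usp39, the genes of the ratios and the 5 genes most like Hsf1. Outside this rule, and chosen after their values were seen, are Dnajc3, Trap1, Dnajb9, Hspa13, Acta1, Acta2, Tagln, Myh11 and Cnn1. The same holds for the genes at 0 in every liver (Hspb3, Cryaa, Ckm and Myh4) and the genes that overlap or share sequence with the 10.

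Total counts per liver, from 8589636 to 10418450, allow a gene with 0 counts up to 3 counts, or 0.288 to 0.349 CPM. These limits cover counting error only, since PCR reads without molecular identifiers include duplicates.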

Additional observations from a re-analysis of the deposited data

Results flagged for a closer look

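Within each genotype, values were examined for a single liver set far apart from the other 3. Of 212 groups of 4 livers, 15 held such a value, and chance alone sets about 1 in 20 groups apart in this way. None of these values belongs to the 10 genes or to the 5 ratios.

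Among pathway genes, the FPKM of Hsp90b1 was low in control replicate 2 (96.2), and that of Dnajb11 was low in Usp39-HKO replicate 2 (16.55). Ptges3 was high in control replicate 1 (31.2) and low in Usp39-HKO replicate 1 (31.89). Hmox1 was high in Usp39-HKO replicate 4 (98.74), and Serpinh1 was high in control replicate 2 (6.566). The summed FPKM of the HSF family was high in control replicate 4 (44.61) and low in Usp39-HKO replicate 1 (38.59).

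Among markers of cell types, Pdgfrb was low in control replicate 4 (3.049), Epcam was high in control replicate 2 (1.287), Lyve1 was high in control replicate 3 (28.76) and Marco was high in control replicate 2 (49.1). The summed Kupffer and macrophage markers were high in Usp39-HKO replicate 4 (922.2). In control replicate 4, Ctrb1 (254.3) and the summed pancreatic acinar markers (527.0) were high.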

How the results depend on the processing

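The higher level of Hspb1 kept its direction and its call under all 15 alternatives. The count of the 10 genes called higher was 2 with TMM, against 10.9% of all genes tested. Without scaling factors and by limma on log2(FPKM + 1) it was 4, against 24.6% and 21.1%. By limma on log2(FPKM + 0.1) it was 3, against 21.3%. With no filter and with a mean FPKM of at least 5 it was 1, against 6.41% and 11.2%. It was between 1 and 3 with each liver left out, against 6.85% to 12.9%. A mean FPKM of at least 5 leaves Hsf1, Hsph1 and Cryab untested. The count called lower was 0 with TMM, against 11.6% of all genes tested, and 1 with no filter, against 6.75%. It was between 0 and 2 with each liver left out, against 6.62% to 11.6%. It was 2 without Usp39-HKO replicate 2, against 11.1%. The log2 fold change of Hspa8 reversed without Usp39-HKO replicate 2 (−0.0114) and without Usp39-HKO replicate 3 (−0.0004), and that of Dnajb1 without Usp39-HKO replicate 2 (−0.0039). Their ranges with each liver left out were −0.0114 to 0.1601 and −0.0039 to 0.2124. With each liver left out, the log2 difference of the ratio of Hsph1 to Hspa4 lay between −0.75 and −0.36 and had an exact permutation p of 0.0286 without Usp39-HKO replicate 2. All 5 ratios kept their direction under all alternatives tried. Except where fewer genes were tested, the cause was not tested. Depth limits Hspa1a, with 2 to 17 counts per liver, most.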
